A study of Mus musculus with 12 samples.

Results

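The cyclin-dependent kinase (CDK) inhibitor genes of the mouse are *Cdkn1a*, *Cdkn1b*, *Cdkn1c*, *Cdkn2a*, *Cdkn2b*, *Cdkn2c* and *Cdkn2d*. They were taken by name as a family, 7 of the 21911 protein-coding genes of the annotation, and the rule for membership uses no measured value. Cortices of *Gad67-GFP* heterozygote pups were taken at postnatal day (P) 2, when GFP marks cells expressing a GABA synthesis gene. After dissociation and FACS, GFP-positive cells (immature cortical interneurons, CINs) and GFP-negative cells (non-CINs) each gave 2 biological replicates of native MNase ChIP for H3K27ac and for H3K27me3. That makes 8 peak lists, 4 for each mark, while 4 input samples entered only through the authors' peak calling. No treatment was given, every group carried the same *Gad67-GFP* allele, and each sample pooled tissue from more than 1 litter. The non-CINs were everything outside the GFP gate, including glutamatergic projection neurons and glia, so a peak list is an average over many cells. A smaller share of marked cells and a weaker mark in each cell cannot be told apart in such lists, nor can the 2 alleles of a gene.

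CDK inhibitors hold back the kinases that drive a cell from one division into the next. The Cip/Kip proteins, encoded by *Cdkn1a* (p21), *Cdkn1b* (p27) and *Cdkn1c* (p57), bind cyclin-CDK complexes broadly, whereas the INK4 proteins, encoded by *Cdkn2a* (p16), *Cdkn2b* (p15), *Cdkn2c* (p18) and *Cdkn2d* (p19), bind the cyclin D kinases CDK4 and CDK6 and so keep RB active. *Cdkn2a* also encodes Arf, which stabilizes p53, from a separate first exon. The *Cdkn2a* and *Cdkn2b* locus is a textbook target of Polycomb repression, whose mark is H3K27me3, and H3K27ac marks active promoters and enhancers. *Cdkn1b*, *Cdkn1c*, *Cdkn2c* and *Cdkn2d* are known for cell cycle exit of neural progenitors and for keeping neurons out of division, and *Cdkn1a* is a p53 target that belongs to neither set.

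The lists held 46040 to 62505 H3K27ac peaks covering 40.8 to 56.3 Mb, and 36662 to 45081 H3K27me3 peaks covering 34.5 to 49.8 Mb. The number of reads behind them was not used here, so "no peak" means that none was called. In marker genes of CINs, both CIN lists covered more bases with H3K27ac than both non-CIN lists at 8 of 10 genes (12.1% of all genes) and the reverse held at 0, although *Lhx6* had no H3K27ac peak in its window in any list. H3K27me3 was called in all 4 lists at all 10 of these genes (21.1% of all genes). In this mark 5 were higher in non-CINs (4.54% of all genes) and 0 in CINs (2.99%). *Gad1* had 12577 and 14240 bp in the CIN lists against 14825 and 15441 bp in the non-CIN lists. Called H3K27me3 in the CIN lists therefore does not by itself show that a gene is repressed in CINs. Glial markers had more H3K27ac in non-CINs at 4 of 5 genes. Markers of pallial neurons did not separate the populations by H3K27ac, with 1 of 7 genes higher in each direction and *Neurod2* and *Slc17a7* without a peak in all 4 lists. Of the 6 microglial and endothelial markers, *Cx3cr1*, *Csf1r* and *Pecam1* had H3K27ac in all 4 lists and *Aif1* and *Cldn5* in none. *Cx3cr1* was higher in non-CINs (6995 and 5600 against 10761 and 9207 bp), and *Tek*, with 533 and 408 bp in CINs and 0 bp in non-CINs, was higher in CINs. The 4 genes of dividing cells did not move together, since *Mki67* had H3K27ac only in non-CINs, at 1250 and 2332 bp, *Ccnb1* was higher in CINs (279 and 308 against 200 and 0 bp), and *Cdk1* and *Top2a* did not separate.

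Each gene was read from 5 kb upstream of its transcription start site (TSS) to its end in mm10. In this window the number of peaks, the bases covered and the percentile of the strongest peak's fold enrichment within its own list were taken. Positions below count bases from the TSS of the gene, with negative numbers upstream. With 2 lists against 2, the smallest *p* of a two-sided exact permutation test was 0.333, so no difference between CINs and non-CINs could pass 0.05. Genes were instead counted where both lists of one population covered more bases than both lists of the other, and that count was set beside the percentage of all protein-coding genes that did the same. Where it changed a call, the same count within replicate numbers is also given, which asks that the CIN and the non-CIN list of each number differ in the same direction (smallest exact permutation *p* 0.5).

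The promoters of 4 members, 6 sequences in all, carry the contrasts described below. For *Cdkn2a* the Arf start on chromosome 4 (chr4:89294654-89294869, minus strand) and the p16 start 12461 bases into the gene (chr4:89282193-89282442, minus strand) are shown beside the *Cdkn2b* promoter (chr4:89311040-89311282, minus strand), since all 3 lie in one H3K27me3 domain. The *Cdkn1b* promoter (chr6:134920151-134920400, plus strand) is shown as the acetylated counterpart. *Cdkn1a* is shown at its upstream start (chr17:29090729-29090978, plus strand) and at a start 2793 bases downstream (chr17:29093519-29093768, plus strand). Sequences come from the RefSeq promoter table of mm10 (GRCm38), which had entries for 6 of the 7 members, and they end at the base before the annotated transcript start. Capitals mark the GC box GGGCGG, or CCGCCC on the other strand, which stood in the 250 upstream bases of 32.7% of all 32851 RefSeq promoters.
Cdkn2a, Arf start: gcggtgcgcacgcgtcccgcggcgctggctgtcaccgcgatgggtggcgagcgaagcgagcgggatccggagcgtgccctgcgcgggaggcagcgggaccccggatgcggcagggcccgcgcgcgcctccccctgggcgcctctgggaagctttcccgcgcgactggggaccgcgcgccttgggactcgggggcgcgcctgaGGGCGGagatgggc
Cdkn2a, p16 start: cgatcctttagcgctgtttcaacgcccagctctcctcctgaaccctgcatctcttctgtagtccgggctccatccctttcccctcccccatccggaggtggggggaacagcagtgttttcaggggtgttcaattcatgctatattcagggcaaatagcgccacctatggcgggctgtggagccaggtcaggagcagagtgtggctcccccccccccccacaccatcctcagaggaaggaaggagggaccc
Cdkn2b: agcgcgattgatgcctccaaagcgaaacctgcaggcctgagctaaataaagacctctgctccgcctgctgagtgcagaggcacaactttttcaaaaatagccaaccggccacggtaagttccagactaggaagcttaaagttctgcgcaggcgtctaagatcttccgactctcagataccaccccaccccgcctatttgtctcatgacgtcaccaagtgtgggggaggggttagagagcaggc
Cdkn1b: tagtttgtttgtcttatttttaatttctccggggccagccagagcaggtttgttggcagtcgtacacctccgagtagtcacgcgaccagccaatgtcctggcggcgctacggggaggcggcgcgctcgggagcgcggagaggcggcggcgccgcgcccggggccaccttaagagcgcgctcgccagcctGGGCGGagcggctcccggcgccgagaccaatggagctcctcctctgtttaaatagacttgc
Cdkn1a, upstream start: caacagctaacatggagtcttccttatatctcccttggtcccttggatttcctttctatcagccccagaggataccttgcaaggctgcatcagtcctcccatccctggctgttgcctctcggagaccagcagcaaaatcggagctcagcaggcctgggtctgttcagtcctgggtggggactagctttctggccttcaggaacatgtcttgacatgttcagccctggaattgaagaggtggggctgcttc
Cdkn1a, downstream start: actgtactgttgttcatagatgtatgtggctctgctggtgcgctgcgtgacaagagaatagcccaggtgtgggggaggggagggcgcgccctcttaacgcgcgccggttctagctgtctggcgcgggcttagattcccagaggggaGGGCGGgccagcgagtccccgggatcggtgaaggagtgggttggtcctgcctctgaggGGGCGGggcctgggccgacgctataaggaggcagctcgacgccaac
The Arf and *Cdkn1b* sequences were both rich in CpG, with 35 and 28 CpG dinucleotides. The p16 and *Cdkn2b* sequences held 7 and 11, the downstream *Cdkn1a* sequence held 19 and the upstream one 2, against a median of 6.0 in all RefSeq promoters.

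The 7 genes differed widely in both marks. *Cdkn2a* and *Cdkn2b* were covered almost end to end by H3K27me3, *Cdkn1c* over most of its window, and *Cdkn1b* by H3K27ac, whereas *Cdkn2c* and *Cdkn2d* carried H3K27ac near their starts and *Cdkn1a* carried both marks. On the scale of mean window coverage by H3K27me3 over 4 lists, *Cdkn2a* and *Cdkn2b* each stood at 95.5% (99.3% of all genes were lower), *Cdkn1c* at 66.9% (98.6% lower), *Cdkn1a* at 13.6% (92.6% lower) and *Cdkn2c* at 5.69% (87.3% lower), while *Cdkn1b* and *Cdkn2d* had none. For H3K27ac the order was *Cdkn1b* at 71.3% (99.9% of genes lower), *Cdkn2c* at 23.7% (96.4% lower), *Cdkn2d* at 14.4% (90.2% lower), *Cdkn1a* at 5.22% (67.5% lower) and *Cdkn2b* at 1.18% (42.9% lower), with *Cdkn1c* and *Cdkn2a* at 0%. Neighbours in these orders whose lists overlapped were *Cdkn2a* and *Cdkn2b* as well as *Cdkn1a* and *Cdkn2c* for H3K27me3, and *Cdkn2c*, *Cdkn2d*, *Cdkn1a* and *Cdkn2b* in succession for H3K27ac. *Cdkn2c* for H3K27me3, and *Cdkn2d* and *Cdkn2b* for H3K27ac, also had lists without a peak, as the genes at 0 did. The 2 classic Polycomb targets therefore stood above all 4 genes of cell cycle exit in H3K27me3 coverage, but that second set was not uniform, since *Cdkn1c* lay below the Polycomb targets and above its other 3 members in every list.

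**Figure D1:**
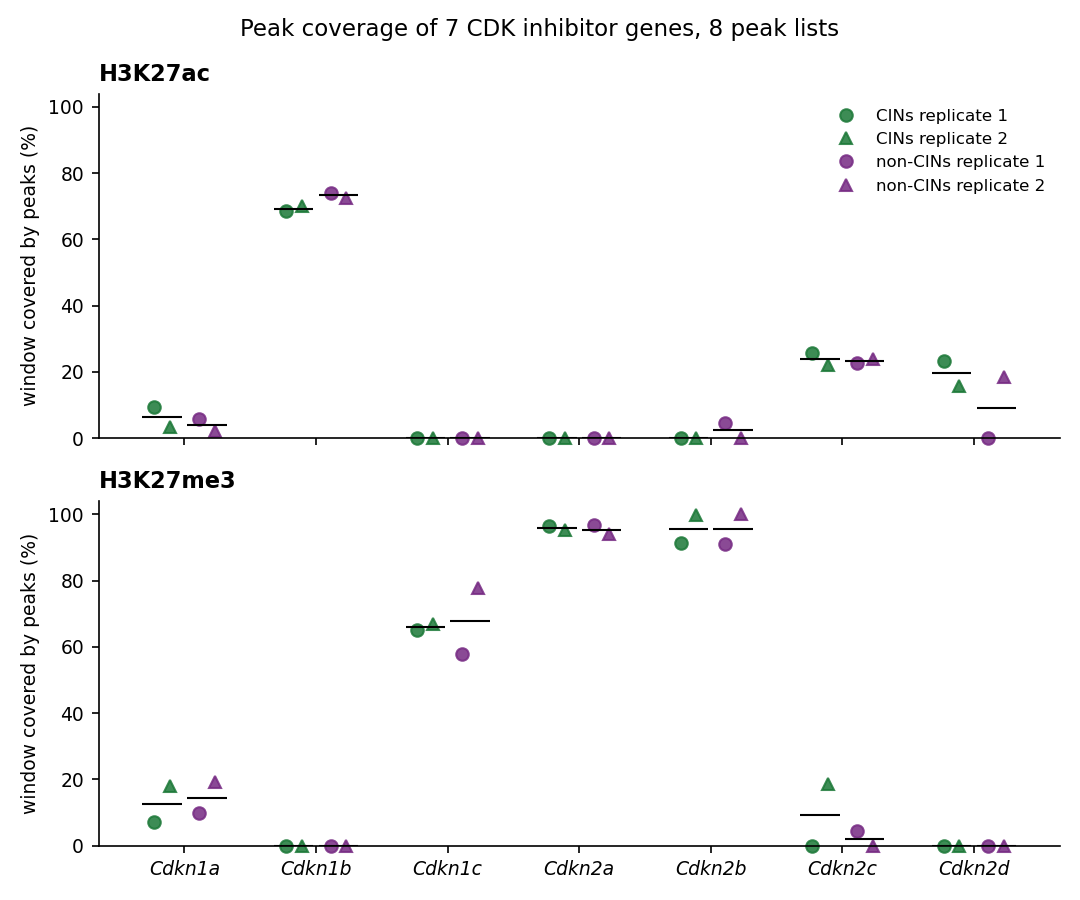
Percentage of each gene window covered by H3K27ac peaks (top) and H3K27me3 peaks (bottom) in each of the 8 lists. Circles are replicate 1, triangles replicate 2, green CINs, purple non-CINs, and the black line is the mean of 2 lists. *Cdkn1b* lies between 68.4% and 74.1% for H3K27ac and at 0 for H3K27me3, and *Cdkn2a* and *Cdkn2b* lie above 90% for H3K27me3 in every list.

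**Figure D2:**
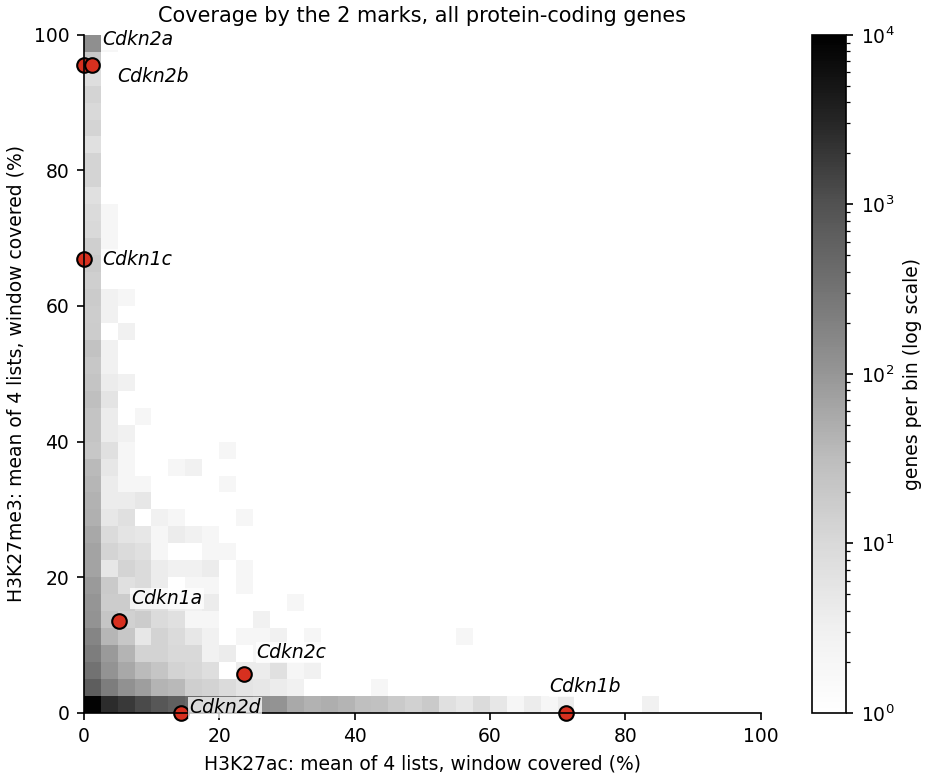
Mean percentage of the gene window covered by H3K27ac (x axis) and H3K27me3 (y axis) over the 4 lists of each mark. Grey shading counts all 21911 protein-coding genes on a log scale and red points are the 7 members. *Cdkn2a*, *Cdkn2b* and *Cdkn1c* sit high on the H3K27me3 axis while *Cdkn1b* sits far along the H3K27ac axis.

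The Polycomb pair showed the same picture in both populations. *Cdkn2a* (chr4:89274471-89294653, minus strand) was covered by H3K27me3 over 24275 and 23966 bp of its 25183-bp window in CINs and over 24342 and 23638 bp in non-CINs. The ranges of the populations overlapped, with means of 24120.5 ± 218 and 23990 ± 498 bp (SD, n = 2, exact permutation *p* = 1.0). Its strongest peak was at percentile 99.9 of each list, and no H3K27ac peak was called in the window in any list. *Cdkn2b* (chr4:89306299-89311039, minus strand) was covered over 8884 and 9712 bp of 9741 bp in the CIN lists and 8866 and 9741 bp in the non-CIN lists, again with overlapping ranges (exact permutation *p* = 1.0). Its strongest peak lay at percentiles 99.4 and 99.1 for CINs, with 99.3 and 99.1 for non-CINs. The coverage of *Cdkn2b* went with the replicate number rather than with the population. Both replicate 2 lists covered it with 1 peak. Both replicate 1 lists broke close to the TSS and also lost bases further upstream, where CIN replicate 1 ended at −4392 and non-CIN replicate 1 broke again. Both genes were among those whose strongest H3K27me3 peak reached percentile 99 in all 4 lists, a rule met by 2 of the 7 members and by 1.26% of all genes. An H3K27me3 peak over the TSS (from 1 kb upstream to 100 bp downstream) in all 4 lists was likewise found at these 2 of 7 members, against 8.69% of all genes. Both were picked as known Polycomb targets, so these counts describe that choice.

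The windows of the pair do not overlap, but they are not independent, because a single peak reached into both in every list. In CIN replicate 1 that peak ran from −15853 to −973 relative to the *Cdkn2a* TSS at percentile 99.4, and in CIN replicate 2 it was 20473 bp long at percentile 99.1. The non-CIN peaks were 15135 and 20576 bp long at percentiles 99.3 and 99.1. When peaks 1 kb or less apart were chained, the domain was 50.3 and 51.0 kb long in the CIN lists and 50.7 and 51.1 kb in the non-CIN lists. Only 9 and 14 of 26432 and 21060 chains in CINs, and 9 and 15 of 31049 and 24314 in non-CINs, were longer. The stretch common to all 4 chains was 50196 bp (chr4:89265236-89315431), and 94.7% of it was covered in all 4 lists. It ended between *Cdkn2b* and the next gene upstream, *Dmrta1*, whose TSS was 368397 bp away, and did not reach the start of *Mtap*, 157531 bp downstream of the *Cdkn2a* TSS. *Mtap*, a methionine salvage enzyme, had 1385 and 1582 bp of H3K27ac in the CIN lists and 1893 and 1781 bp in the non-CIN lists, and at most 200 bp of H3K27me3.

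**Figure D3:**
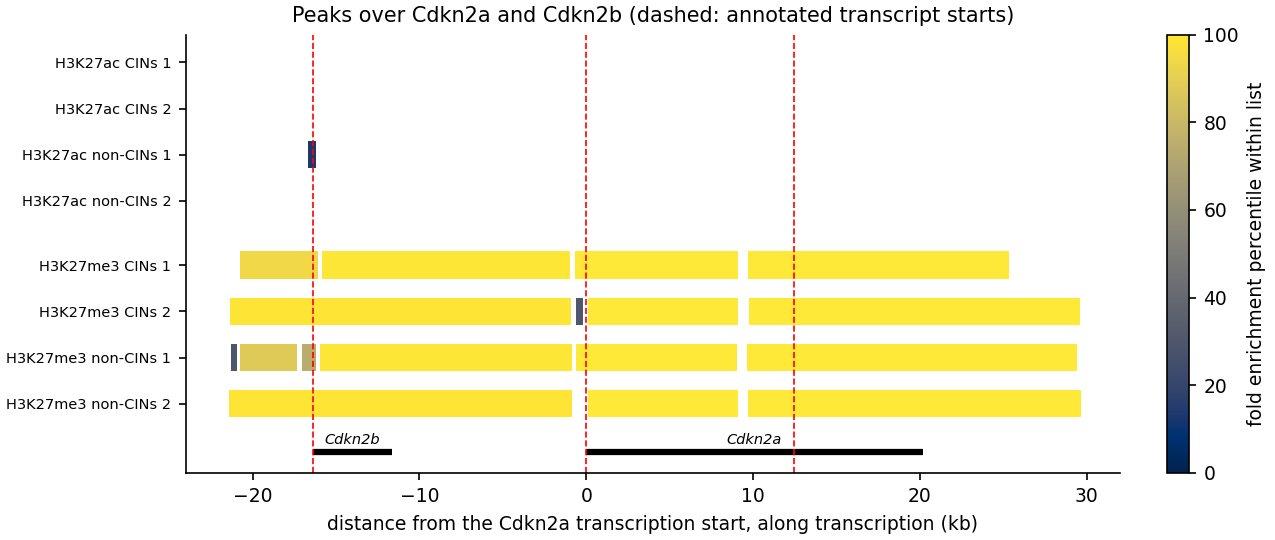
Called peaks over *Cdkn2a* and *Cdkn2b* in each of the 8 lists, by distance in kb from the *Cdkn2a* TSS along the direction of transcription. Bars are coloured by the percentile of their fold enrichment within the list, dashed red lines are annotated transcript starts and black bars the genes. H3K27me3 bars span both genes in all 4 lists, with breaks past 9 kb and just upstream of the Arf start common to the 4 lists and others in some lists only, and a single short, weak H3K27ac bar lies at the *Cdkn2b* start in non-CIN replicate 1.

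Some breaks were shared by all 4 lists and others were not, and 1.48% of the common stretch was covered in no list. Inside *Cdkn2a*, 563 bp from 9098 to 9660 bases past the TSS had no peak in any of the 4 lists, and 69.6% of the 50-base words of that stretch occurred again within the surrounding sequence, against 0.406% where all 4 lists covered the domain. The reads were 50 bases long and only well-mapped reads were kept, but whether mapping emptied this stretch was not tested. A second break of 180 bp, from −825 to −646, lay just upstream of the Arf start in sequence of 69.4% GC with no repeated words. Around the Arf start itself the lists differed by replicate, since the printed Arf sequence was covered in full, 216 bases, in both replicate 1 lists and over 10 and 0 bases in the replicate 2 lists of CINs and non-CINs. The printed p16 sequence was covered over all 250 bases in all 4 lists, and so was the printed *Cdkn2b* sequence over its 243 bases. *Cdkn2b* had 1 H3K27ac peak, in non-CIN replicate 1, of 458 bp from −272 to 185 and at percentile 12.6 of its list. It overlapped H3K27me3 of the same replicate over 454 bp, and none was called in the other 3 H3K27ac lists.

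*Cdkn1c* (chr7:143458339-143461050, minus strand), which encodes p57 and is known as an imprinted gene expressed from the maternal allele, had H3K27me3 and no H3K27ac in every list. H3K27me3 covered 5032 and 5155 bp of its 7712-bp window in the CIN lists and 4456 and 5987 bp in the non-CIN lists. Both CIN values lay between the non-CIN values, with means of 5093.5 ± 87 and 5221.5 ± 1080 bp (SD, n = 2, exact permutation *p* = 1.0). The strongest peak lay at percentiles 96.1 and 95.6 for CINs, with 96.9 and 95.4 for non-CINs, below the Polycomb pair in every list. In each list this peak began about 1 kb inside the gene and ran past its end, from 988 to 3703 in CIN replicate 1 and from 983 to 3952 in non-CIN replicate 2. Further peaks lay upstream, and the TSS itself was poorly covered, with short peaks at percentiles 33.7, 22.6 and 25.7 touching the TSS region in 3 lists. The nearest peak of CIN replicate 1 began at 167, just outside that region. The domain was less regular than at *Cdkn2a*, since the longest chain of peaks touching the window was 4.1 and 41.6 kb in the CIN lists and 9.3 and 26.0 kb in the non-CIN lists. Neighbouring *Kcnq1*, a potassium channel gene of the same imprinted cluster, had 92148 to 111725 bp of H3K27me3 and 2423 to 4724 bp of H3K27ac, all over a much longer window. H3K27me3 in all 4 lists with H3K27ac in none was found at *Cdkn1c* and *Cdkn2a*, 2 of the 7 members, and at 5.69% of all genes.

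*Cdkn1b* (chr6:134920401-134925513, plus strand), which encodes p27, was the acetylated extreme of the family. H3K27ac covered 6922 and 7096 bp of its 10113-bp window in the CIN lists and 7490 and 7318 bp in the non-CIN lists. Both non-CIN lists lay above both CIN lists, at 7404 ± 122 against 7009 ± 123 bp (SD, n = 2, exact permutation *p* = 0.333, the smallest possible). This was the only such separation in covered bases among the members for either mark. For H3K27ac it made 1 of 7 members higher in non-CINs and 0 higher in CINs, at backgrounds of 12.1% and 12.1% of all genes, and a single member at that background is not a result about the family. The difference lay upstream of the gene, and in the gene body alone CINs were 154 bp higher. Its strongest peak reached percentiles 96.0 and 92.6 for CINs, with 97.4 and 94.8 for non-CINs, with overlapping ranges. Peaks began between −1273 and −1034, ran through the gene, and continued past its end. Chained, they formed domains of 14.9 and 12.1 kb in the CIN lists and 12.3 and 14.4 kb in the non-CIN lists, and 38 to 62 chains of the same list were longer. A separate upstream peak was called in all 4 lists, at percentiles 68.0 and 69.3 for CINs, with 81.3 and 80.3 for non-CINs. No H3K27me3 peak was called in the window in any list, so *Cdkn1b* was the 1 member with H3K27ac in all 4 lists and H3K27me3 in none, as were 32.7% of all genes.

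**Figure D4:**
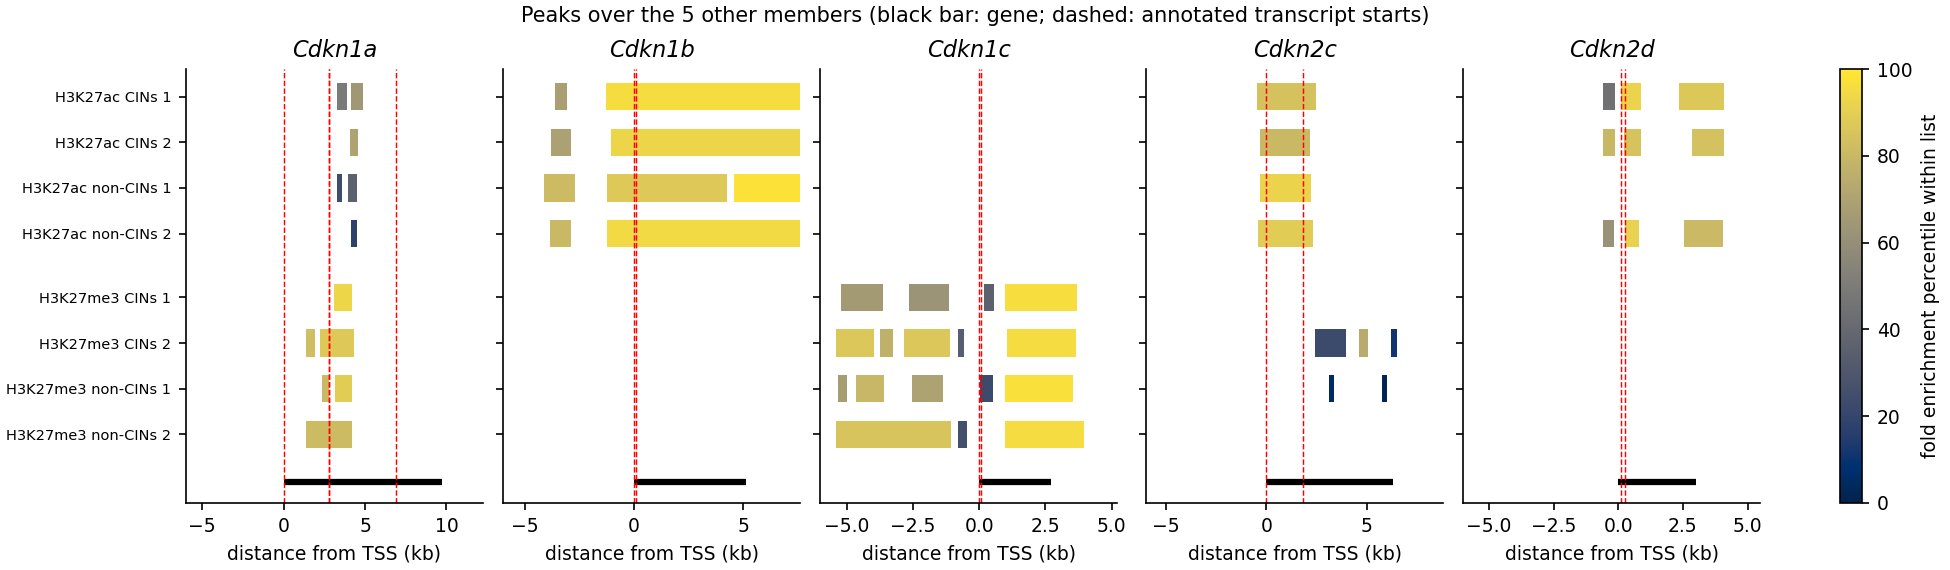
Called peaks over *Cdkn1a*, *Cdkn1b*, *Cdkn1c*, *Cdkn2c* and *Cdkn2d* in each of the 8 lists, by distance in kb from each gene's TSS along transcription, coloured by fold enrichment percentile within the list. Black bars are the genes and dashed red lines annotated transcript starts. H3K27ac spans *Cdkn1b* and the start of *Cdkn2c* in all 4 lists, H3K27me3 flanks the *Cdkn1c* start, and *Cdkn2d* has no bar in non-CIN replicate 1.

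*Cdkn2c* (chr4:109660876-109667189, minus strand), which encodes p18, had 1 H3K27ac peak over its start in each list. The peak was 2923 and 2504 bp long in the CIN lists and 2564 and 2718 bp in the non-CIN lists, with overlapping ranges and means of 2713.5 ± 296 and 2641 ± 109 bp (SD, n = 2, exact permutation *p* = 1.0). Its percentile was 84.4 and 80.1 for CINs, with 92.3 and 88.8 for non-CINs. Both non-CIN values were higher, without a test and without a share of all genes to set beside it. The peak covered both annotated starts, which lie 1817 bases apart. H3K27me3 was called downstream of this peak in 2 lists only, over 2092 bp in CIN replicate 2, where the strongest peak was at percentile 73.9, and over 484 bp in non-CIN replicate 1, where it was at 4.7. The other 2 lists had none, and the marks shared no base within the same population and replicate. *Cdkn1b* and *Cdkn2c* were the 2 of 7 members with an H3K27ac peak over the TSS in all 4 lists, against 42.1% of all genes.

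*Cdkn2d* (chr9:21288410-21291407, minus strand), which encodes p19, had H3K27ac in 3 of 4 lists and H3K27me3 in none. Coverage was 1869 and 1270 bp of 7998 bp in the CIN lists and 0 and 1472 bp in the non-CIN lists (means 1569.5 ± 424 and 736 ± 1040 bp, SD, n = 2, exact permutation *p* = 0.667). The strongest peak, just inside the gene, was at percentiles 92.4 and 84.8 in CINs and 91.2 in non-CIN replicate 2. In those 3 lists another peak lay upstream of the TSS. The last one spanned the end of the gene and the start of *Kri1*, which lies 3438 bases past the *Cdkn2d* TSS on the same strand, so it cannot be given to *Cdkn2d* alone. The empty window in non-CIN replicate 1 was unusual. Only 88 genes, 0.402% of all, had an H3K27ac peak in every list but that one, and 9 of these had a strongest peak at percentile 80 or above in the other 3. Within 50 kb on either side of the gene the same list held 3 H3K27ac peaks, against 4 or 5 in the other lists. The overlapping window of *Kri1* was empty in that list too. It held 2947 and 2366 bp of H3K27ac in the CIN lists and 2511 bp in non-CIN replicate 2. *Cdkn2d* did not separate the populations, since the other non-CIN list lay within the CIN range.

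*Cdkn1a* (chr17:29090976-29100727, plus strand), the p53 target encoding p21, was the 1 member with both marks in all 4 lists of each. Its H3K27ac peaks lay between 3281 and 4856 bases past the TSS and covered 1375 and 507 bp in the CIN lists and 858 and 340 bp in the non-CIN lists, with overlapping ranges (means 941 ± 614 and 599 ± 366 bp, SD, n = 2, exact permutation *p* = 0.667). Their strongest percentile was 64.6 and 70.4 for CINs, with 35.3 and 17.6 for non-CINs. Both CIN values were higher, again without a test or a share of all genes. With only peaks of −log10 *q* of at least 4, no H3K27ac was left in non-CINs, the difference in means went from 342 to 941 bp, and *Cdkn1a* then separated as higher in CINs. Within replicate numbers the CIN list was also the higher one both times, as at 19.9% of all genes, and 19.5% were higher in non-CINs. H3K27me3 covered 1065 and 2652 bp in the CIN lists and 1450 and 2830 bp in the non-CIN lists at percentiles, in the same order, of 93.1, 87.4, 89.2 and 81.3, and it was larger in replicate 2 than in replicate 1 of each population (exact permutation *p* = 0.667 between populations). Within replicate numbers the non-CIN list had more H3K27me3 both times, as at 10.3% of all genes, and 6.81% had more in CINs. Neither mark touched the upstream start in any list, whereas the printed downstream promoter had H3K27me3 over 250 bases in CIN replicate 2, 227 in non-CIN replicate 1 and 250 in non-CIN replicate 2, and over 0 in CIN replicate 1. H3K27ac did not reach that promoter in any list. Both marks were called over the same 697 and 237 bp in the CIN lists and 555 and 84 bp in the non-CIN lists of the same replicate. Such sharing in all 4 pairs of lists was found at 1 of 7 members and at 1.13% of all genes. Under the same limit of −log10 *q* the shared stretch was lost in non-CINs, where 0 members then had it in both replicates.

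For H3K27me3, 0 of 7 members separated the populations in either direction, by the count described above, against 2.99% of all genes higher in CINs and 4.54% higher in non-CINs. Within replicate numbers 1 member, *Cdkn1a*, was higher in non-CINs for H3K27me3, and *Cdkn1a* joined *Cdkn1b* for H3K27ac, in the opposite direction. Exact permutation *p* values of single members ran from 0.333 to 1.0 over both marks, and at 7 genes and 2 lists a population these counts cannot exclude a difference. Across the 8 lists, the protein-coding genes most like each member in strongest percentile were *Hmx2* and *Hmx3*, a neighbouring pair, for *Cdkn2a* (mean absolute difference 0.00506 percentile points), *Dkk1* and *Phox2a* for *Cdkn2b* (0.475 and 1.04) and *Scn4b* and *Rprml* for *Cdkn1c* (0.0987 and 0.0999). *Setd2* and *Fbxw11* were nearest to *Cdkn1b* (0.125 and 0.187). The differences were larger for *Cdkn2c* with *Ucp2* and *Gopc* (3.33 and 3.6) and for *Cdkn1a* with *Zfp707* and *Fam19a2* (6.05 and 6.65). Lists without a peak counted as 0, so empty lists shared by both genes added no difference. *Cdkn1a* had no empty list, so these values do not rank the members by likeness. *Kri1*, whose window holds the same strongest peaks, had a difference of 0.0 from *Cdkn2d*, and *Zfp131* followed at 1.22.

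The inhibitors act on the cyclin, CDK, RB and E2F axis, which was taken with its p53 arm as a list. Of its 29 genes, 25 had an H3K27ac peak in all 4 lists (56.8% of all genes), 20 had one over the TSS in all 4 (42.1% of all genes), and 19 had no H3K27me3 in any list (59.2% of all genes). In H3K27ac 6 were higher in CINs and 4 in non-CINs, at 12.1% of all genes in each direction, and in H3K27me3 1 and 2, at 2.99% and 4.54%, with median differences of −34.5 and 0 bp against 0 bp over all genes for both marks. *Cdk4*, the kinase that INK4 proteins bind, had H3K27ac over 3338 and 2421 bp in the CIN lists and 1734 and 1737 bp in the non-CIN lists, and H3K27me3 only in non-CINs, over 691 and 1104 bp in weak peaks (percentiles 20.8 and 39.1). *Ccnd1*, the cyclin D partner of CDK4, went the other way. Its H3K27ac covered 2364 and 2469 bp in the CIN lists and 4562 and 4295 bp in the non-CIN lists, and its H3K27me3 took up 5006 and 5297 bp in the CIN lists against 0 and 404 bp in the others. The groups did not overlap for either mark at either gene, and 2 lists against 2 allowed no lower *p* than 0.333. Summed H3K27ac over the 5 glial markers moved with *Ccnd1*, at 50099 and 49088 bp in the CIN lists and 72691 and 75134 bp in the non-CIN lists. So did the sum over the 4 genes of dividing cells (3759 and 3000 against 4428 and 5119 bp), although *Ccnb1* alone was higher in CINs. The sum of the CIN markers went the other way, and those of pallial neurons and of microglia and endothelium overlapped. The part of any of these cells in the *Ccnd1* difference was not tested. *Rb1*, the main target of these kinases, had 8540 and 8228 bp of H3K27ac in the CIN lists and 11199 and 9014 bp in the non-CIN lists. *Tfdp1*, a partner of E2F proteins, had 1492 and 1128 bp in the CIN lists and 750 and 404 bp in the non-CIN lists. *E2f6*, a repressive E2F, had 397 and 0 bp of H3K27me3 in the CIN lists and 580 and 1663 bp in the non-CIN lists.

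Regulators of the Ink4/Arf locus, 18 genes including Polycomb subunits and transcription factors, had H3K27ac in all 4 lists at 16 genes and H3K27me3 in all 4 at 8, against 56.8% and 21.1% of all genes. In H3K27ac 2 were higher in CINs and 1 in non-CINs, again at 12.1% of all genes in each direction, and in H3K27me3 3 and 1, at 2.99% and 4.54%, with median differences of 140 and 0 bp. *Ets1*, an activator of p16, had 9108 and 6741 bp of H3K27ac in the CIN lists and 4288 and 2094 bp in the non-CIN lists, beside H3K27me3 over 40836 and 55536 bp in the CIN lists and 58135 and 71269 bp in the non-CIN lists. *Id1*, which opposes *Ets1* at p16, had 3004 and 2774 bp of H3K27ac in the CIN lists and 3830 and 3240 bp in the non-CIN lists, and H3K27me3 over 527 and 817 bp in CINs and 0 bp in both non-CIN lists. *Tbx3*, a repressor of Arf, was itself covered by H3K27me3 over 19056 bp in both CIN lists and 18795 and 18849 bp in non-CINs. Of the separations named in these lists, those of *Cdk4*, *E2f6* and *Id1* in H3K27me3 and of *Rb1* and *Id1* in H3K27ac were lost with −log10 *q* of at least 4. With the strongest 30000 peaks of each list, those of *Cdk4* and *Ets1* in H3K27me3 and of *Id1* in H3K27ac were lost. Merging of peaks 500 bp or less apart lost those of *Tbx3* in H3K27me3 and of *Id1* in H3K27ac. In the gene body alone those of *Cdk4* in both marks and of *E2f6* in H3K27me3 were lost. The window from 10 kb upstream to 5 kb downstream lost that of *E2f6*. Within replicate numbers 26 of all 47 genes separated in H3K27ac. Of these 15 were higher in CINs and 11 in non-CINs, beside 19.9% and 19.5% of all genes. In H3K27me3 14 separated, 7 in each direction, beside 6.81% of all genes higher in CINs and 10.3% in non-CINs.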

How the data were processed

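H3K27ac and H3K27me3 were profiled by native ChIP-seq in CINs and non-CINs of P2 cortex, 2 replicates each. Reads were mapped by the authors to mm10 (BWA 0.7.15), filtered for mapping quality (SAMtools) and passed to MACS2, version 2.2.7 in the submitters' processing notes, which called broad peaks per replicate over the corresponding input. For each peak the authors deposited a score, a fold enrichment (a ratio over input), a −log10 *p* and a −log10 *q*. The score and the −log10 *p* values were not used. The deposited fold enrichment depends on each library's depth and enrichment, so it was used only as a percentile within its list. The lists were already cut at the authors' thresholds (lowest −log10 *q* 2.21 to 2.6 per list), and read depth was not used, so weak marks below that limit cannot be seen and no counting interval can be given.

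Peaks were clipped to windows that began 5 kb before the TSS and ended with the gene, for 21911 protein-coding genes (27 with duplicated symbols left out, no filter on low values), with Python 3.11.15, NumPy 2.4.6, pandas 2.3.3 and SciPy 1.17.1. The overlap code was tested on simulated data and against bedtools 2.31.1. CINs and non-CINs were compared by two-sided exact permutation tests and by counts of genes whose lists did not overlap. All 7 members were named. Pathway genes named were, for each mark and direction, the 3 with the largest difference among those whose lists did not overlap between populations. Although the rule for members uses no measured value, the family and the gene lists were chosen with earlier results of these data known. Alternatives were merging of peaks 500 bp or less apart, −log10 *q* of at least 4, other windows, the strongest 30000 peaks of each list, a replicate block, and leaving out a replicate. The replicate number was taken to pair CINs with non-CINs, because the methods sort both populations from dissociated cortex and compare them within each replicate. Lists of the same number deviated together over genes (correlation 0.346 for H3K27ac and 0.744 for H3K27me3). The replicates were separate pools, and the spread between 2 of them is a rough measure of error.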

Additional observations from a re-analysis of the deposited data

How the results depend on the processing

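The counts of members with a peak over the TSS in all 4 lists were 2 for each mark in the main analysis and 2 to 3 in the alternatives run for them. The count of members separating CINs from non-CINs by H3K27ac was 1. It became 2 with −log10 *q* of at least 4, 0 in the gene body alone, 2 with the wider window (10 kb upstream to 5 kb downstream), 2 with the strongest 30000 peaks of each list and 2 with the replicate block. The added member was *Cdkn1a*, higher in CINs, under the *q* limit, the strongest peaks and the block, and *Cdkn2c*, higher in non-CINs, in the wider window. For H3K27me3 the count was 0, and 1 (*Cdkn1a*) with the replicate block. The count of pathway genes was 13 for H3K27ac and 7 for H3K27me3, and 26 and 14 with the replicate block. For H3K27me3 it became 3 with −log10 *q* of at least 4 and 4 with the strongest 30000 peaks. Of all genes, the main rule called 12.1% in each direction for H3K27ac, and 2.99% (CINs) and 4.54% (non-CINs) for H3K27me3. The block called 19.9% and 19.5% for H3K27ac and 6.81% and 10.3% for H3K27me3, in the same order. Shares under the other settings are not given. The block asks only for the same direction in both replicate numbers and is the looser rule. Without a replicate, any inequality counts, and the counts ran from 4 to 5 and 5 to 5 members and from 44 to 46 and 19 to 20 pathway genes. Members with both marks over the same bases in both non-CIN replicates numbered 1, then 0 with −log10 *q* of at least 4, 0 with the strongest 30000 peaks, and 1 to 2 without a replicate. Of 80 alternatives for single members, 68 left the difference within 1 SD of replicates and 12 moved it further, of which 1 turned the only called difference, *Cdkn1b* H3K27ac in the gene body alone (154 bp higher in CINs). The sign also changed in 13 alternatives of differences that had not been called, 6 of them on leaving out a replicate, such as *Cdkn2d* H3K27ac (833.5 to −202 bp without replicate 1) and *Cdkn2c* H3K27me3 (804 to −484 bp without replicate 2), so these differences have no stable direction. The cause of these changes was not tested. Depth was not used here, and the thresholds of the deposited lists limit what can be seen.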
